A study of Homo sapiens with 12 samples.

Results

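The transcripts of 10 surface markers used in the work-up of mantle cell lymphoma (MCL) were followed in 3 MCL cell lines: CD5, FCER2 (CD23), MS4A1 (CD20), CD200, CR2 (CD21), CD24, CD38, CD27, ROR1 and SDC1 (CD138). They were chosen by name, as the listed genes among the 63677 Ensembl genes of the count table, and all 10 identifiers were found there. A filter on low counts kept 9 of the 10 members and 18674 genes in all. CD24 did not pass, with 0 reads in every library. CD200 and CR2 passed through JVM2 alone, and CD5 and ROR1 through JEKO1 and MAVER1, so that a difference between lines was built into the way these 4 entered the test.

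MCL arises from mature B cells of the mantle zone and is recognised in the clinic by a pattern of surface antigens on top of cyclin D1 and SOX11. Typical MCL cells carry CD20 and, against the habit of most B cells, the T-cell antigen CD5, while CD23 and CD200, which mark chronic lymphocytic leukaemia, are usually absent or dim. CD38, CD27 and CD138 belong to later steps of B-cell life, the memory B cell and the plasma cell, and ROR1 is an embryonic receptor that several B-cell malignancies express again.

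RNA-seq was performed on polyadenylated RNA from JEKO1, JVM2 and MAVER1, 3 established MCL lines, each grown for 48 h untreated, in ironomycin, in ibrutinib or in both, which gave 12 libraries, 1 for each line and treatment. Ironomycin, a salinomycin derivative that holds iron in lysosomes, was given at 50 nM to JEKO1 and at 250 nM to JVM2 and MAVER1. Ibrutinib, an inhibitor of the B-cell receptor kinase BTK, was given at 0.5 µM to JEKO1, 1.5 µM to JVM2 and 6.25 µM to MAVER1. Dose and line therefore varied together, JVM2 was also cultured in less serum and at a lower density than the other lines, and the effects of these conditions cannot be told apart from that of the line. Each line is 1 cell line, and its 4 libraries are 4 treatments of it rather than 4 like cultures. For a treatment, the 3 lines are the replicates (n = 3).

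Levels are given as CPM (reads of a gene relative to the size of the library) after TMM scaling, which corrects for differences in library composition, and differences as log2 fold changes from edgeR. A gene was called when its Benjamini-Hochberg adjusted p over all genes tested was under 0.05 and its log2 fold change was 1 or more in either direction. Transcripts were measured, not the proteins at the cell surface, and in such bulk RNA fewer positive cells and less RNA per cell cannot be told apart.

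The libraries held 35448523 to 38630809 counted reads, and TMM factors ran from 0.914 to 1.19, the highest in JEKO1 with both drugs, which also had the fewest reads. The B-cell markers were present in every library, with 7 of 7 above 0 reads in each line and a summed level of 1279 to 2155 CPM. CCND1 (cyclin D1) had a median of 2755 CPM in JEKO1, 261 in JVM2 and 4589 in MAVER1. SOX11 had 134 CPM in JEKO1, 103 in MAVER1 and 0 reads in JVM2. Of the 3 MCL markers, SOX11 and CD5 were thus absent or nearly so in JVM2. Of the T-cell markers other than CD5 and CD27, CD7 reached 6.36 CPM and CD3E 2.40 in a library, and CD3D, CD3G, CD2 and CD8A stayed at or below 1.53. The 6 myeloid markers summed to between 0.78 and 8.73 CPM, and FDCSP, a follicular dendritic cell gene, had 0 reads throughout. TRAC was not matched.

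The lines differed far more than the treatments did. Between JEKO1 and JVM2, 6 of the 9 tested members were called, against 46.8% of all genes tested. Between MAVER1 and JVM2 it was 8 of 9 against 40.0%, and between JEKO1 and MAVER1 5 of 9 against 34.2%. CD5, ROR1, CD200 and CR2 were called in both comparisons with JVM2, a difference built into the way they entered the test. A large share of the transcriptome thus differed between any pair of lines, and nothing is read from the counts of members as such. JVM2 stood opposite to JEKO1 and MAVER1 in some of the antigens: it all but lacked CD5 and ROR1 and held CD200, FCER2 and, at a low level, CR2. Other members divided the lines otherwise: CD38 and CD27 set MAVER1 apart, and SDC1 was low in JEKO1 alone.

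**Figure D1:**
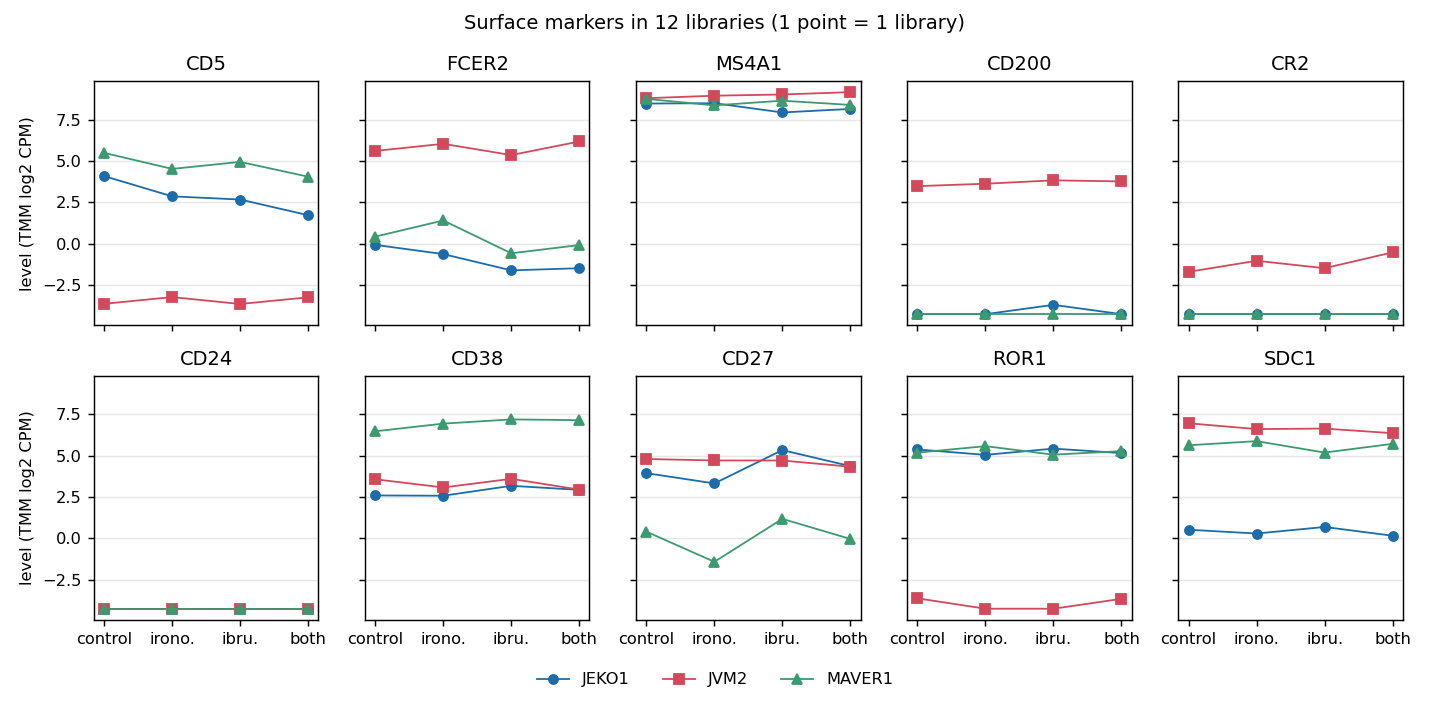
Level of each of the 10 markers (TMM log2 CPM, vertical axis) in control, ironomycin (irono.), ibrutinib (ibru.) and both-drug libraries, with 1 point for each library and lines joining the libraries of a cell line as a guide. JVM2 lies at or near the bottom for CD5 and ROR1 and on top for FCER2, CD200 and CR2. MS4A1 is high in all 12 libraries, and the lowest values mark 0 reads, as for CD24.

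CD5, a co-receptor that dampens signalling from the antigen receptor, was expressed in MAVER1 and JEKO1 and all but missing in JVM2. In MAVER1 it reached 44.9 CPM in control, 23.0 with ironomycin, 30.8 with ibrutinib and 16.6 under both. In JEKO1 the same libraries held 17.0, 7.24, 6.33 and 3.26 CPM. In JVM2 they held 1, 2, 1 and 2 reads. JEKO1 and MAVER1 overlapped only where the JEKO1 control met the MAVER1 library with both drugs, and MAVER1 was higher under each of the 4 treatments. The fitted log2 fold change was 9.36 ± 0.32 (SE) for MAVER1 over JVM2 and 7.46 ± 0.34 for JEKO1 over JVM2. No p-value is given for these, since CD5 passed the filter through JEKO1 and MAVER1 alone. JEKO1 was lower than MAVER1 (log2 fold change -1.90 ± 0.17, adjusted p = 2.39e-06). As a ratio of all reads of a line, JEKO1 held 201-fold more CD5 than JVM2, with a 95% counting interval of 92.2 to 549, which covers counting error only.

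ROR1, a receptor tyrosine kinase-like protein that binds WNT5A, followed CD5 in being all but absent from JVM2. JEKO1 held 41.3 CPM in control, 32.9 with ironomycin, 42.8 with ibrutinib and 35.5 under both. MAVER1 held 36.1, 47.4, 33.2 and 38.5 CPM in the same order. JVM2 had 1, 0, 0 and 1 reads. JEKO1 and MAVER1 overlapped, and no difference between them was detected (log2 fold change -0.02 ± 0.14, adjusted p = 0.916). Over JVM2 the fitted log2 fold change was 11.12 ± 0.32 in JEKO1 and 11.14 ± 0.32 in MAVER1. These fitted values depend on 2 reads in JVM2. They are given without p-values, since ROR1 passed the filter through JEKO1 and MAVER1 alone. The ratio of summed reads was 2743 for JEKO1, with a counting interval of 759 to 22657.

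CD200, an immunoglobulin-family ligand that restrains myeloid cells through its receptor CD200R1, was found, but for 1 read, in JVM2 alone. JVM2 held 11.1 CPM in control, 12.3 with ironomycin, 14.2 with ibrutinib and 13.6 under both, which is 390 to 508 reads a library. JEKO1 had 1 read in its 4 libraries, and MAVER1 had 0, which allows a level of up to 0.0202 CPM (3 reads over the 4 libraries). JVM2 was thus at least 635-fold higher than MAVER1. Against JEKO1 the ratio was 2099, with a counting interval of 376 to 82970. Since CD200 passed the filter through JVM2 alone, these differences are given with no p-value.

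CR2, the receptor for complement C3d that joins CD81 in the B-cell co-receptor, was detected at a low level in JVM2. The 4 JVM2 libraries held 9 reads in control, 16 with ironomycin, 11 with ibrutinib and 24 under both, or 0.257, 0.439, 0.308 and 0.646 CPM. All 8 JEKO1 and MAVER1 libraries had 0 reads. JVM2 was therefore at least 22.7-fold higher than JEKO1 and at least 20.6-fold higher than MAVER1, against a floor of 3 reads over 4 libraries. edgeR called both differences, and DESeq2 called neither. Since CR2 passed the filter through JVM2 alone, no p-value is given. Without the ironomycin, the ibrutinib or the both-drug libraries, CR2 fell below the filter.

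FCER2, the low-affinity IgE receptor and the antigen most used to separate chronic lymphocytic leukaemia from MCL, was also highest in JVM2. JVM2 held 48.8 CPM in control, 65.7 with ironomycin, 41.0 with ibrutinib and 72.4 under both. MAVER1 held 1.30, 2.60, 0.619 and 0.897 CPM, and JEKO1 0.904, 0.598, 0.276 and 0.307 CPM. JVM2 did not overlap with either of the other lines, which did overlap with each other. JEKO1 was lower than JVM2 (log2 fold change -6.81 ± 0.33, adjusted p = 9.27e-09) and so was MAVER1 (-5.48 ± 0.30, adjusted p = 2.86e-08). The smaller difference between JEKO1 and MAVER1 was called at -1.33 ± 0.38 (adjusted p = 0.00888). Without the ironomycin libraries it was -0.93 (adjusted p = 0.0774), and in control and ibrutinib libraries only, -0.68 (adjusted p = 0.161).

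ROR1, CD200, CR2 and CD5 were each at or close to 0 reads in at least 1 line and above 0 in another, and the promoters of the first 3 of these, those with an entry in the promoter table, are shown for reference, as the 250 bases before the start site in RefSeq on GRCh38.p14, read along the strand of the gene, which is the plus strand for each. Capitals mark matches, on either strand, to 6 short motifs known from B-cell or general promoters: the octamer ATGCAAAT, the PU.1 and Spi-B core GAGGAA, the RBPJ core TGGGAA, the E-box word CACCTG, the RUNX core TGTGGT and the TATA box word TATAAA.
ROR1, chr1:63773767-63774016: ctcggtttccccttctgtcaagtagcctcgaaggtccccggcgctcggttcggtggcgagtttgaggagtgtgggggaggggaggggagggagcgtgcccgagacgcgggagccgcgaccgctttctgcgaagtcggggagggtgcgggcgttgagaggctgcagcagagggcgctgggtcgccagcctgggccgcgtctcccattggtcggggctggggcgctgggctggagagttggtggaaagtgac
CD200, chr3:112332906-112333155: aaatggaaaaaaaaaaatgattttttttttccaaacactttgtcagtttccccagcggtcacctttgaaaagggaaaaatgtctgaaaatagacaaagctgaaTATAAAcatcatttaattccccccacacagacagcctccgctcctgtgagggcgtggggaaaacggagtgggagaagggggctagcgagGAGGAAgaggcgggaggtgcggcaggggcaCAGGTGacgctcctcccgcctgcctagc
CR2, chr1:207454078-207454327: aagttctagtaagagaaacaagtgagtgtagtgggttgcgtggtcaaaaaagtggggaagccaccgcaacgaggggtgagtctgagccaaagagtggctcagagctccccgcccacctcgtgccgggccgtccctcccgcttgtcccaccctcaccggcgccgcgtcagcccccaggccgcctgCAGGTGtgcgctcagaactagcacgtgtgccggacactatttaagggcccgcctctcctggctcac
The ROR1 sequence held no match and 24 CpG dinucleotides, against a median of 11 over the 35116 promoters of the table. CD200 held 9 CpG, 1 GAGGAA match, 1 CACCTG match and 1 TATAAA match, the last 147 bases before the start. CR2 held 17 CpG and 1 CACCTG match, 66 bases before the start. No printed match overlapped another. GAGGAA was present in 23.6% of all promoters, TGGGAA in 20.8%, CACCTG in 17.5%, TGTGGT in 11%, TATAAA in 10.7% and the octamer in 1.63%. The table had 12 start sites for 8 of the members, of which 6 held CACCTG, 6 TGGGAA, 2 TGTGGT, 1 GAGGAA, 1 TATAAA and 0 the octamer. CD5 and MS4A1 had no entry. No measurement here bears on binding at these letters.

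MS4A1, the gene of CD20 and the target of rituximab, was the member with the most even expression. JVM2 held 444 CPM in control, 493 with ironomycin, 519 with ibrutinib and 573 under both. MAVER1 held 431, 329, 400 and 335 CPM, and JEKO1 355, 360, 245 and 283 CPM. Every JVM2 library lay above every library of the other lines, which overlapped with each other. JEKO1 was lower than JVM2 (log2 fold change -0.72 ± 0.14, adjusted p = 0.0008) and so was MAVER1 (-0.45 ± 0.14, adjusted p = 0.0159), both under the fold minimum. JEKO1 against MAVER1 was -0.27 ± 0.14 (adjusted p = 0.119).

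CD38, an ectoenzyme that breaks down NAD, was set apart by MAVER1. There it reached 88.4 CPM in control, 122 with ironomycin, 145 with ibrutinib and 141 under both. JVM2 held 11.8, 8.37, 12.02 and 7.65 CPM, and JEKO1 5.98, 5.90, 8.97 and 7.56 CPM. JVM2 and JEKO1 overlapped. MAVER1 was higher than JVM2 by 3.63 ± 0.18 on the log2 scale (adjusted p = 1.14e-08), and JEKO1 was lower than MAVER1 (log2 fold change -4.13 ± 0.18, adjusted p = 9.78e-09). JEKO1 against JVM2 was -0.50 ± 0.17 (adjusted p = 0.0196), under the fold minimum.

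CD27, a TNF receptor family member of memory B cells that binds CD70, was lowest in MAVER1, the line with the most CD38. JVM2 held 27.7 CPM in control, 26.0 with ironomycin, 26.0 with ibrutinib and 20.0 under both. JEKO1 held 15.3, 9.92, 40.2 and 20.5 CPM, and MAVER1 1.27, 0.322, 2.21 and 0.923 CPM. MAVER1 lay below all other libraries, whereas JEKO1 spread on both sides of JVM2. The log2 fold change of MAVER1 over JVM2 was -4.58 ± 0.37 (adjusted p = 7.31e-07) and that of JEKO1 over MAVER1 4.16 ± 0.37 (adjusted p = 1.99e-06). JEKO1 and JVM2 were not told apart (-0.42 ± 0.30, adjusted p = 0.215).

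SDC1, the heparan sulphate proteoglycan CD138 of plasma cells, was high in JVM2 and MAVER1 and low in JEKO1. JVM2 held 124 CPM in control, 96.9 with ironomycin, 99.1 with ibrutinib and 81.6 under both. MAVER1 held 49.2, 58.5, 36.2 and 52.3 CPM, and JEKO1 1.38, 1.17, 1.56 and 1.06 CPM. The 3 lines did not overlap. JEKO1 was lower than JVM2 (log2 fold change -6.27 ± 0.19, adjusted p = 3.07e-10) and lower than MAVER1 (log2 fold change -5.24 ± 0.19, adjusted p = 2.39e-09). MAVER1 was lower than JVM2 (log2 fold change -1.03 ± 0.15, adjusted p = 7.43e-05), close to the fold minimum, and -0.99 when libraries were scaled by their totals.

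**Figure D2:**
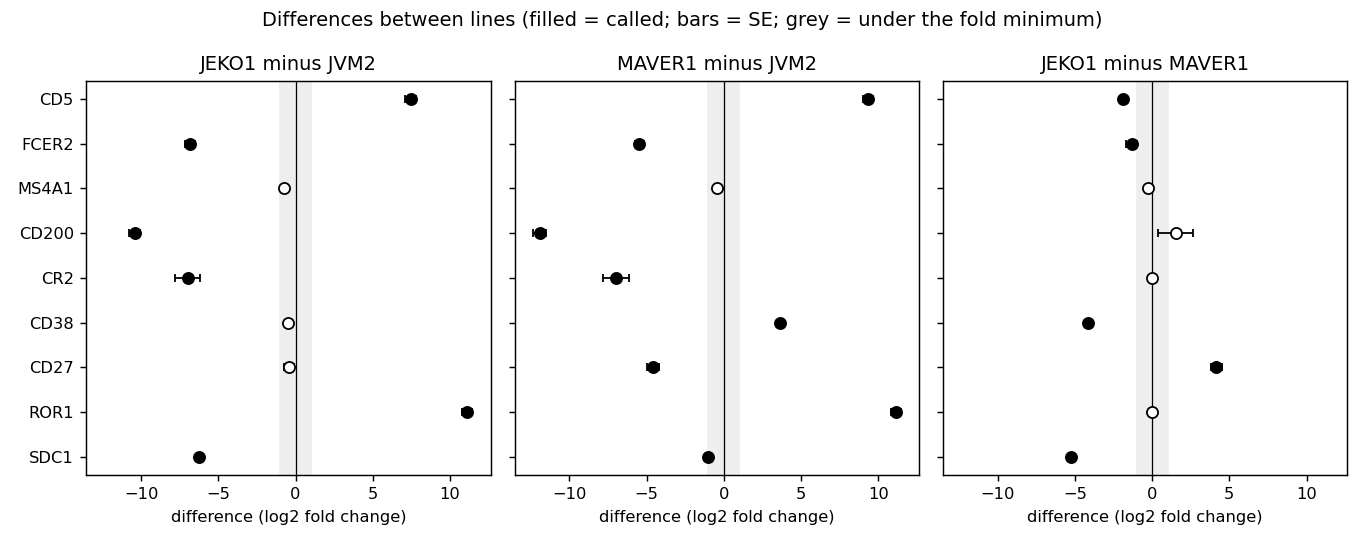
Differences between lines for the 9 tested members (log2 fold change, horizontal axis), with SE bars; filled points are called, open points are not, and the grey band marks sizes under 1. CD5 and ROR1 lie to the right and FCER2, CD200, CR2 and SDC1 to the left in both comparisons with JVM2. For CD5, ROR1, CD200 and CR2 the filter on low counts had built in the difference from JVM2. The SE of CR2 in JEKO1 against MAVER1 was not defined, since all 8 libraries had 0 reads.

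CD24, a small lipid-anchored sialoglycoprotein of B cells, was listed at 0 reads in all 12 libraries. This value is uncertain, since CD24 has near-identical copies elsewhere in the genome. Over its 243 coding bases, CD24, on chromosome 6, differed at 2 bases from the annotated copy CD24P4, on chromosome Y (GENCODE 29). Their identity was 99.2%, with a longest shared stretch of 113 bases. Both are shown, with the differing bases in capitals.
CD24: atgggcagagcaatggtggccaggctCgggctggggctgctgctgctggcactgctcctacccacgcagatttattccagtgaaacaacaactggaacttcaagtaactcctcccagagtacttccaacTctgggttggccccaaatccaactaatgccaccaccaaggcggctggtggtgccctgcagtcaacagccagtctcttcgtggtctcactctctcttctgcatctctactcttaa
CD24P4: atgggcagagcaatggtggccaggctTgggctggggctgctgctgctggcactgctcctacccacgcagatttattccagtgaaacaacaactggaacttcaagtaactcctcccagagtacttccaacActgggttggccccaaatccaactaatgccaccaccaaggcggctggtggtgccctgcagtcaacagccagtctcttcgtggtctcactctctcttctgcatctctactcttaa
Reads listed under CD24P4 numbered 3927 in control, 3948 with ironomycin, 4427 with ibrutinib and 2997 under both in JEKO1. MAVER1 had 1059, 1244, 1140 and 1146 reads, and JVM2 had 3, 3, 1 and 0. JEKO1 and MAVER1 were thus high and JVM2 close to 0, the order of ROR1 rather than of FCER2. CD24P4 passed the filter through JEKO1 and MAVER1 alone, so that its difference from JVM2 is given as these reads, with no test. JEKO1 was higher than MAVER1 by 1.58 ± 0.13 on the log2 scale (adjusted p = 1.24e-06). Whether these reads came from CD24 was not tested, and CD24P4 is not counted among the members.

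Per kilobase of exon, a scale on which different genes can be set side by side, MS4A1 was the highest member in each line, at a median of 65.5 CPM per kb in JEKO1, 104 in JVM2 and 75.5 in MAVER1. In JEKO1 it was followed by CD27 (12.7 CPM per kb), ROR1 (5.72) and CD5 (2.11), with CD38 (0.988), SDC1 (0.355) and FCER2 (0.185) lower. In JVM2 it was followed by SDC1 (27.3 CPM per kb), FCER2 (23.4) and CD27 (18.4), and then by CD200 (4.33), CD38 (1.47) and CR2 (0.0764). In MAVER1 it was followed by CD38 (19.2 CPM per kb), SDC1 (14.1), CD5 (8.35) and ROR1 (5.55), with CD27 (0.778) and FCER2 (0.448) lower. CD24 is left out of this order, and in JEKO1 and MAVER1 the order would change if the reads listed under CD24P4 were those of CD24. Exon lengths were taken from GENCODE 29, which may differ from the annotation behind the counts.

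Genes with a like pattern were sought among all tested genes. Over the 12 libraries, the genes with the highest Pearson r to each member ranged from CD82 for MS4A1 (r = 0.94) to AEBP1 for ROR1 (r = 0.999). CD200 was most like SEPTIN8 (r = 0.998) and CR2 most like CHST7 (r = 0.995), and SEPTIN8 and FBN1 stood among the 3 closest genes of both. CD5 was most like PRKAG2 (r = 0.993), FCER2 like SLC25A45 (r = 0.993), CD38 like ZNF416 (r = 0.99) and CD27 like DOK4 (r = 0.984). The 12 libraries come from 3 lines, so that these values mostly describe a shared order of the lines.

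The partners of the members were compared next, as the genes that bind them, pair with them or are close relatives. Of 21 listed genes, 15 passed the filter on low counts. Some of these, such as WNT5A with 1 read in MAVER1, passed it through other lines, so that part of the line differences was built in. Between JEKO1 and JVM2, 10 were called, 7 higher and 3 lower in JEKO1, against 46.8% of all genes tested, with a median log2 fold change of 0.63 against 0.03 over all genes. Between MAVER1 and JVM2, 9 were called against 40.0% of genes (5 higher, 4 lower, median 0.06 against -0.00), and between JEKO1 and MAVER1, 7 against 34.2% (5 higher, 2 lower, median -0.06 against 0.03). WNT5A, a ligand of ROR1, had a median of 40.5 CPM in JEKO1, 0.335 in JVM2 and 1 read in all of MAVER1, so that JEKO1 expressed both ROR1 and this ligand, and MAVER1 ROR1 with next to no WNT5A. The log2 fold change of WNT5A for JEKO1 over JVM2 was 6.92 ± 0.36 (adjusted p = 1.69e-08). ROR2, the relative of ROR1, stayed at or below 0.955 CPM in every library.

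CD72, a B-cell inhibitory receptor put forward as a ligand of CD5, and CD6, the closest relative of CD5, were low in JVM2 as CD5 was. CD72 had a median of 77.8 CPM in JEKO1, 53.3 in MAVER1 and 3.35 in JVM2, with a log2 fold change of 4.59 ± 0.29 (adjusted p = 6.77e-08) for JEKO1 over JVM2 and 4.13 ± 0.28 (adjusted p = 1.93e-07) for MAVER1 over JVM2. CD6 had 5.61 CPM in JEKO1, 5.09 in MAVER1 and 0.354 in JVM2 (4.07 ± 0.37 for JEKO1 over JVM2, adjusted p = 1.35e-06). SIGLEC10, a receptor for CD24, had 14.2 CPM in JEKO1, 17.0 in MAVER1 and 3.38 in JVM2 (2.34 ± 0.13 for MAVER1 over JVM2, adjusted p = 3.39e-08).

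CD70, the ligand of CD27, was expressed in each line, at a median of 87.9 CPM in JEKO1, 188 in JVM2 and 144 in MAVER1, the line with the least CD27. CD70 was lower in JEKO1 than in JVM2 (log2 fold change -1.12 ± 0.15, adjusted p = 3.3e-05). CD81, which shares a complex with CR2, did not follow CR2 and had medians of 344, 211 and 753 CPM in JEKO1, JVM2 and MAVER1. IFITM1, which joins that complex, was highest in JVM2 with 253 CPM, against 39.5 in JEKO1 and 14.6 in MAVER1 (-4.07 ± 0.11 for MAVER1 over JVM2, adjusted p = 1.72e-10). CD200R1, the receptor of CD200, had 0 reads in JVM2 and at most 0.452 CPM in JEKO1. ADAM10, the protease that sheds CD23, had medians of 87.1, 74.1 and 123 CPM in JEKO1, JVM2 and MAVER1.

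Among 63 other surface genes of B cells, 62 passed the filter. Some passed only through lines where they are high, such as SLAMF1 and PDCD1LG2 through JVM2, and CD1D and MME through JEKO1 and MAVER1. For such genes a line difference was built in, so that nothing is read from the counts below or their direction. Between JEKO1 and JVM2, 48 were called, 12 higher and 36 lower in JEKO1, with a median log2 fold change of -1.41. Over all genes tested, 46.8% were called, 4470 higher and 4263 lower. Between MAVER1 and JVM2, 41 were called (15 higher, 26 lower, median -0.61), against 40.0% of all genes, 3464 higher and 4001 lower. Between JEKO1 and MAVER1 it was 30 (6 higher, 24 lower, median -0.67), against 34.2% of all genes, 3573 higher and 2813 lower. The median over all genes tested was 0.03, -0.00 and 0.03 in the same comparisons. FAS, the death receptor, had 116 CPM in JVM2, 12.3 in MAVER1 and 0.243 in JEKO1, where a library held 6 to 11 reads. Its fitted log2 fold change was -8.96 ± 0.14 for JEKO1 over JVM2. No p-value is given for it, since FAS passed the filter through JVM2 and MAVER1 alone. MME (CD10), which typical MCL lacks, was expressed in JEKO1 and MAVER1 with 21.4 and 21.0 CPM and had 8 reads in all of JVM2. The fitted log2 fold change was 8.76 ± 0.27 for JEKO1 over JVM2. It is given with no p-value, since MME passed the filter through JEKO1 and MAVER1 alone.

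SDC1, CD27 and CD38 were also read within a list of 10 genes of the plasma cell programme, all of which passed the filter. Between JEKO1 and JVM2, 6 were called, all lower in JEKO1, against 46.8% of all genes (median -1.98 against 0.03). Between MAVER1 and JVM2, 7 were called, 2 higher and 5 lower, against 40.0% (median -0.68 against -0.00), and between JEKO1 and MAVER1, 7, with 1 higher and 6 lower, against 34.2% (median -1.44 against 0.03). SLAMF7 had a median of 218 CPM in JVM2, against 0.685 in JEKO1 and 1.08 in MAVER1 (-8.13 ± 0.29 for JEKO1 over JVM2, adjusted p = 8.12e-10). PRDM1, the factor that drives plasma cell formation, had 56.0 CPM in JVM2, 21.1 in MAVER1 and 3.52 in JEKO1 (-4.23 ± 0.30, adjusted p = 1.93e-07), the order of SDC1. The 8 plasma cell markers summed to 2258 to 2503 CPM in JVM2, 1347 to 1991 in MAVER1 and 469 to 1011 in JEKO1, SDC1 included. IRF4 made up most of the JVM2 sum, with medians of 1356, 380 and 226 CPM in the same order. XBP1 (265 CPM in JVM2, 484 in MAVER1), JCHAIN (128 and 254) and MZB1 (194 and 377) were higher in MAVER1 than in JVM2. TNFRSF17 was close to even there (61.5 and 63.4). In JEKO1, XBP1 had a median of 71.8 CPM, JCHAIN 103, TNFRSF17 20.7 and MZB1 337, the last higher than in JVM2. The part of these genes in the SDC1 difference was not tested. CD27 and CD38 did not share the order of SDC1 either.

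**Figure D3:**
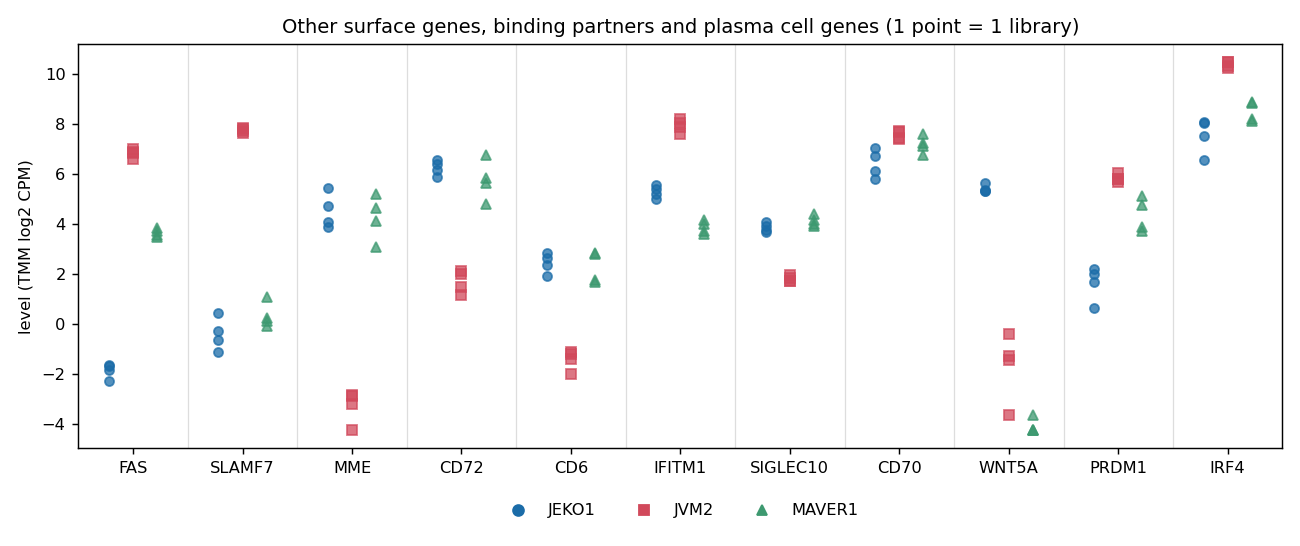
Levels (TMM log2 CPM, vertical axis) of 11 other genes in the 12 libraries, 1 point for each library and 1 symbol for each line: other surface genes (FAS, SLAMF7, MME), partners of the members (CD72, CD6, IFITM1, SIGLEC10, CD70, WNT5A) and plasma cell factors (PRDM1, IRF4). FAS and SLAMF7 are highest in JVM2, MME, CD72, CD6 and SIGLEC10 lowest there, and WNT5A is high in JEKO1 alone.

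Treatments moved few of the members. CD5 fell with both drugs against control, the single member called of 9, against 6.29% of all genes tested. From its control, CD5 in JEKO1 changed by a log2 ratio of -1.22 with ironomycin, -1.42 with ibrutinib and -2.36 under both. In MAVER1 it changed by -0.97, -0.54 and -1.44. JVM2 had 1 or 2 reads and gave no usable ratio. In both lines that express CD5, the level was thus lower than control with each drug alone and lowest with both. Over the lines, the log2 fold change with both drugs was -1.84 ± 0.24 (adjusted p = 0.00252). It was -2.21 without MAVER1 (adjusted p = 0.07) and -1.38 without JEKO1 (adjusted p = 0.0671), so that the call needed both lines. In a fit that left out the cell line term it was -1.64 (adjusted p = 1) and was not called.

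Ironomycin alone gave 0 called members, against 0.214% of genes, with 1 member at an unadjusted p under 0.05 and 1 called by DESeq2, CD5 in both cases (-1.08 ± 0.23, adjusted p = 0.062 by edgeR and 0.00133 by DESeq2). Ibrutinib alone gave 0 called members, as it gave 0% of genes, with 2 members at an unadjusted p under 0.05, CD5 (-0.96 ± 0.23, adjusted p = 0.99) and CD38 (0.43 ± 0.19, adjusted p = 1), and 0 called by DESeq2. Both drugs against ironomycin gave 0 called members and 0% of genes, with 1 member at an unadjusted p under 0.05, CD5, and 0 by DESeq2. Both drugs against ibrutinib gave 0 called members, against 4.66% of genes, with 2 at an unadjusted p under 0.05 and 0 by DESeq2. There CD5 was at -0.88 ± 0.24 (adjusted p = 0.0245), under the fold minimum, and CD27 at -0.87 ± 0.37 (adjusted p = 0.113). Of all 18674 genes tested, 4198, 680, 1970 and 7046 had an unadjusted p under 0.05 in these comparisons, in the order given. DESeq2 called 156, 11, 22 and 807 of them.

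**Figure D4:**
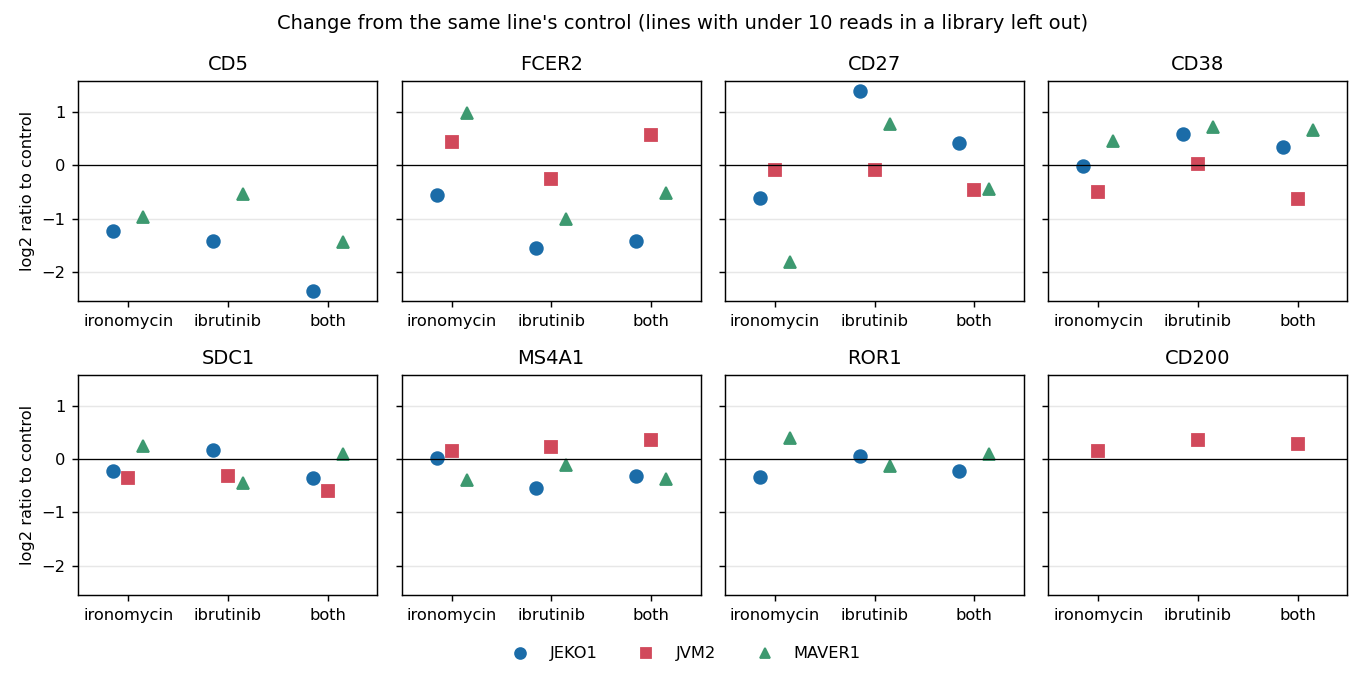
Log2 ratio to the control library of the same line (vertical axis) under each treatment, 1 point for each library, for lines with at least 10 reads in each of their libraries. CD5 lies below 0 in JEKO1 and MAVER1 under all 3 treatments, with both drugs lowest. CD27 in JEKO1 and MAVER1 lies below 0 with ironomycin and above 0 with ibrutinib, and FCER2 lies below 0 with ibrutinib in the 3 lines.

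Within single lines, ironomycin was read over the pairs of libraries without and with ibrutinib. In JEKO1, CD5 fell (log2 fold change -1.10 ± 0.21, adjusted p = 0.00265), 1 member called of 9 against 7.35% of genes. Scaled by library totals, the value was -0.96, without the library with both drugs it was -0.81 (adjusted p = 0.0598), and without the control library -0.63 (adjusted p = 0.0779). In MAVER1, 0 members were called against 6.35% of genes, with 4 at an unadjusted p under 0.05 and 1 by DESeq2, CD27. CD5 there was at -0.94 ± 0.19 (adjusted p = 0.00326), just under the fold minimum, and the value depended on single libraries. It was called without the MAVER1 control (-1.38) or without the library with both drugs (-1.27), but came to -0.62 without the ironomycin library (adjusted p = 0.134) and -0.53 without the ibrutinib library (adjusted p = 0.127). In JVM2, 0 members were called against 0.712% of genes, with 3 at an unadjusted p under 0.05 and 0 by DESeq2. Of all 18674 genes tested, 7863 in MAVER1 and 3692 in JVM2 had an unadjusted p under 0.05. DESeq2 called 763 and 75 of them.

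The ironomycin change differed between lines for SDC1 (adjusted p = 0.0172), the 1 member called of 9 in this test of the difference itself, against 9.38% of genes. SDC1 was at -0.40 ± 0.19 in JEKO1, -0.31 ± 0.10 in JVM2 and 0.39 ± 0.10 in MAVER1. In MAVER1 both ironomycin libraries, at 58.5 and 52.3 CPM, lay above the control and ibrutinib libraries, at 49.2 and 36.2 CPM. In JVM2 the order within each pair was the opposite. Leaving out any 1 of 7 of the 12 libraries took the adjusted p to between 0.0536 and 0.129.

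Ibrutinib within a line gave 0 called members in JEKO1, against 0.0910% of genes, with 4 at an unadjusted p under 0.05 and 1 by DESeq2, CD5 (-1.29 ± 0.19, adjusted p = 0.0583 by edgeR and 0.0181 by DESeq2). CD27 was at 1.23 ± 0.30 there and was not called (adjusted p = 0.231). It gave 0 in JVM2 against 0.00536% of genes, with 0 at an unadjusted p under 0.05 and 0 by DESeq2. It gave 0 in MAVER1 against 0% of genes, with 3 at an unadjusted p under 0.05 and 0 by DESeq2. FCER2 was at -1.39 ± 0.43 in JEKO1 (adjusted p = 0.401) and -1.36 ± 0.33 in MAVER1 (adjusted p = 1), on counts of 11 to 97 reads. A difference of the ibrutinib change between lines was called for 0 members and 0% of genes, with 3 members at an unadjusted p under 0.05 (CD5, FCER2 and CD27) and 0 by DESeq2. Of all 18674 genes tested, 1509 in JEKO1, 448 in JVM2, 525 in MAVER1 and 466 in the test between lines had an unadjusted p under 0.05. DESeq2 called 98, 3, 14 and 45 in the same order.

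For CD27, the log2 ratio to control with ironomycin was -0.62 (JEKO1), -0.09 (JVM2) and -1.82 (MAVER1), the last on 12 reads. With ibrutinib it was 1.39, -0.09 and 0.77 in the same lines. The ratios of CD27 thus had opposite signs for the drugs in JEKO1 and MAVER1 and were near 0 in JVM2. With the filter on low counts edgeR called none of these changes, and without it CD27 was called for ironomycin in MAVER1 and for ibrutinib in JEKO1. For CD38, both drugs gave ratios of 0.34 (JEKO1), -0.62 (JVM2) and 0.67 (MAVER1), and the test of the ironomycin change between lines had an adjusted p of 0.0864. MS4A1 stayed within a log2 ratio of -0.54 to 0.37 of its control in any line and ROR1 within -0.33 to 0.39 in JEKO1 and MAVER1. CD200 in JVM2 ranged from 0.15 to 0.35. With 3 lines in the fit, both drugs against control gave -0.11 ± 0.17 for MS4A1 (adjusted p = 0.649). ROR1 was at -0.07 ± 0.20 (adjusted p = 0.827), a value that rests on JEKO1 and MAVER1. CD200 was at 0.28 and was not called, and this value rests on JVM2 alone but for 1 read in JEKO1. In JVM2, CR2 was at 24 reads with both drugs against 9 in control. Its fitted value, which rests on JVM2 alone, was 1.28 and was not called.

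The other surface genes of B cells were set beside CD5. With both drugs against control, 10 of the 62 tested were called, all lower, with a median of -0.37 against 0.05 over all genes. Of all genes tested, 6.29% were called there, 898 higher and 277 lower. FCRL2 (-3.08, adjusted p = 0.00191), FCRL1 (-3.07, adjusted p = 0.00174), FCRL5 (-2.64, adjusted p = 0.00135) and FCRL3 (-2.31, adjusted p = 0.0186), Fc receptor-like proteins of B cells, had the largest values and were picked out after their values were seen. The others were CD86, CD52, CD180, CD1D, MME and FCGR2B. Over its 4 libraries JVM2 had 1 read of FCRL1, 2 of FCRL2, 5 of FCRL3, 0 of CD1D, 8 of MME and 23 of CD180. The values of these genes thus rest on JEKO1 and MAVER1. In MAVER1, FCRL1 fell to 7 reads and FCRL3 to 4 in a library. In the same comparison 1 of the 15 tested partners was called, SDC3, a relative of SDC1 (1.25, adjusted p = 0.0106). Of the 10 plasma cell genes 0 were called, and 1 had an unadjusted p under 0.05, as did 7684 of the 18674 genes tested.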

How the data were processed

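RNA-seq was performed by the authors on 12 libraries (3 lines, 4 treatments). The deposited table holds whole-number read counts for each Ensembl gene that the authors left unnormalized; the labels' processing notes name STAR, DESeq2 and GRCh37, while the counter, the annotation release and the strand setting are not given in the sources used here. All 12 count columns matched a sample by its label (0 left unused). Without a known strand setting, reads of overlapping genes cannot be told apart.

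Of 63677 genes, 52181 were named from a table of Ensembl identifiers. Tests used edgeR 4.0.16 under R 4.3.3 (TMM, filterByExpr by treatment, quasi-likelihood F-test, Benjamini-Hochberg over the 18674 genes tested). Line and treatment were additive terms, with 6 residual degrees of freedom. Drug changes within a line came from models with 1 drug coefficient for each line, the other drug and the interaction of both (4 residual degrees of freedom); the difference between lines was tested on 2 coefficients. In the line comparisons the residual spread is that of treatment changes between lines. Nothing says that libraries came from separate cultures, so p-values measure the spread between these libraries, which may be partly technical. SE was the size of the log2 fold change over the square root of F. Log2 CPM used a prior count of 2. The cell line was a block because same-numbered libraries come from the same line: departures from the mean of a treatment had correlations of 0.926 to 0.976 within lines (18 pairs) and of -0.705 to -0.127 across lines (48 pairs). Such departures sum to 0 over the lines of a treatment, so that negative values across lines were built in.

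The members and gene lists were chosen with earlier results of these data known. All members were named, and of each list up to 4 genes with the largest called line difference whose mean reached 1 log2 CPM, plus genes that bind or pair with a member; IRF4 was added to a plot after its values were seen. A few genes that these rules name are not reported here. Likeness was Pearson r over the 12 libraries among genes that reached the same mean. Intervals of read ratios are exact binomial at 95%. Tests were checked on simulated counts. Alternatives were other scalings, no filter, DESeq2 1.42.0, no fold minimum, other terms and leaving out lines or libraries. Promoters came from a RefSeq table (GRCh38.p14) and CD24 sequences from GENCODE 29; the coordinates are those of these sources and were not used for counting. Plots were drawn with matplotlib 3.10.9.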

Additional observations from a re-analysis of the deposited data

Results flagged for a closer look

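SDC1 was picked out because the change with ironomycin differed between the lines by the test of the difference itself (edgeR, 2 coefficients, adjusted p = 0.0172 over 18674 genes). Its log2 fold change was negative in JEKO1 (-0.40) and JVM2 (-0.31) and positive in MAVER1 (0.39). The dose was 50 nM in JEKO1 and 250 nM in both other lines, and dose and line cannot be told apart in JEKO1. DESeq2 also called SDC1 in this test.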

How the results depend on the processing

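The 6, 8 and 5 members called between lines came to 5 to 6, 6 to 7 and 4 to 5 when each treatment was left out in turn. The count of 8 for MAVER1 against JVM2 was thus lower each time. In control and ibrutinib libraries only they came to 4, 6 and 4, where CD200 and CR2 did not pass the filter. CR2 also dropped below the filter without the ironomycin, ibrutinib or both-drug libraries. SDC1 in MAVER1 against JVM2 fell just under the fold minimum without the control (-0.93) or ibrutinib (-0.90) libraries.

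For treatments, members called moved as follows. Both drugs against ibrutinib gave 1 (CD5) without a fold minimum. Ironomycin in JEKO1 gave 0 with library totals. Without a filter on low counts, ironomycin against control gave 1 (CD5), ironomycin in MAVER1 1 (CD27), ironomycin by line 2 (CD38 and SDC1) and ibrutinib in JEKO1 2 (CD5 and CD27). Of 35583 genes, 189, 1218, 2225 and 157 were called there in the same order. By DESeq2, ironomycin against control gave 1 (CD5), ironomycin in MAVER1 1 (CD27) and ibrutinib in JEKO1 1 (CD5). Both drugs against control gave 0 with no replicate block, where 0 genes of the whole table were called; the block changed no other count of members. Leaving out 1 line or library, the counts ran from 0 to 1 for ironomycin against control, 0 to 1 for both drugs against control, 0 to 1 for both drugs against ibrutinib, 0 to 1 for ironomycin in JEKO1, 0 to 2 for ironomycin in MAVER1 and 0 to 1 for ironomycin by line. SDC1 was not called in the last test without the JVM2 control, ibrutinib or both-drug library, or without any 1 of the 4 MAVER1 libraries. For single members under the alternatives, 273 values kept their side of the threshold, 20 lost the call, 8 gained it and none that was called changed sign. Where no cause is given for a change, it was not tested.

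Depth limited CR2 (at most 24 reads a library) and FCER2 in JEKO1 and MAVER1 (at most 97), and the members at 0 to 2 reads in a line allow no statement on drug changes there.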
